A study of Rattus norvegicus with 6 samples.

Results

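Chemokines and their receptors were described in the ileum, where the small intestine ends, of obese Zucker fa/fa rats after bypass surgery. The members were the genes whose array row carries exactly 1 gene symbol of the Ccl, Cxcl, Ccr or Cxcr families followed by a number, or the symbol Xcl1, Xcr1, Cx3cl1 or Cx3cr1. By this rule 49 of the 14506 genes measured were members, 33 ligands and 16 receptors, each with 1 row. All 6 rats carried the Zucker fa/fa genotype, which makes the leptin receptor defective, and were 20 weeks old at surgery. In 3 rats a duodenum-jejunum bypass (DJB) joined the distal limb of the cut jejunum to the duodenum, with bile and pancreatic juice led in further down. The other 3 rats had a sham operation in which the cut gut was joined up again so that food kept its normal course. Ileum RNA was taken 14 days after surgery and hybridised to 1 Affymetrix whole-transcript array per rat. Obese rats of 1 genotype were studied, so the values hold no lean group. No unoperated rats were analysed here.

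Chemokines are small secreted proteins that bind G protein-coupled receptors on leukocytes and direct their migration along a gradient. In the small intestine the epithelium makes several of them: Ccl25 and Ccl28 draw lymphocytes and IgA-secreting cells that carry Ccr9 and Ccr10, Ccl20 draws cells with Ccr6 towards lymphoid follicles, and Cxcl16 and Cx3cl1 are tethered to the cell membrane until proteases shed them. Others are made by stroma of lymphoid follicles (Cxcl13, Ccl19, Ccl21) or are induced in inflammation (Ccl2, Cxcl1, Cxcl9).

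Values are log2 expression levels after RMA, a normalisation that corrects background, gives the probe values of the arrays the same distribution and then summarises the probes of a row. Changes are DJB minus sham on that log2 scale, given as the estimate ± its SE in limma, with n = 3 rats in each group. The words rose and fell are kept for genes with a Benjamini-Hochberg adjusted p under 0.05, adjusted in limma over the 14506 genes. A row with a mean under 6 over the 6 arrays is called dim, and dim rows understate fold changes. Over the whole series 112 genes passed, 57 higher and 55 lower after DJB. The array median was 6.19 on DJB 1 and 6.08 to 6.11 on the others, and with so few arrays the precision is limited. The median change over all genes was 0.05, and 0.01 without DJB 1. The ileal markers Fabp6, a bile acid binding protein (13.44 to 13.67 in sham, 13.81 to 13.97 after DJB), and Slc10a2, the ileal bile acid transporter (9.90 to 10.75 in sham, 11.91 to 12.46 after DJB), were at high levels on every array. Levels come from whole ileum, so fewer cells of a type and less RNA per cell cannot be told apart.

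Among the 49 members, Cxcl16 rose 1.55-fold after DJB and no other member passed, beside 0.772% of all genes called in either direction. The 3 DJB values lay wholly above the 3 sham values for 7 members, beside 14.5% of all genes, and wholly below them for 3, beside 6.56%. Together these are 10 of 49 members (20.4%), close to the 21.1% of all genes whose groups did not overlap. At an unadjusted limma p under 0.05 there were 13 members (26.5%, beside 14.3% of all genes), 9 higher and 4 lower. The median change was 0.12 over the members and 0.05 over all genes. After DJB 29 members were higher (59.2%), beside 61.7% of all genes, so most genes leaned upward. Counts of higher genes below are to be read beside that 61.7%. Dim rows made up 19 of the 49 members. Among the 30 others, 6 lay wholly above sham (20.0%, beside 17.7% of all genes at that level) and 3 wholly below (10.0%, beside 8.97%).

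Of the 7 epithelial ligands 5 were higher after DJB (71.4%, beside 61.7% of all genes). The 7 had a median change of 0.34, the highest of the ligand roles. Their DJB values lay wholly above sham for 4 of the 7, Ccl20, Ccl25, Cxcl16 and Cx3cl1 (57.1%, beside 14.5% of all genes, or 17.7% of those with a mean of at least 6). Of the 7, 6 (5 higher, 1 lower) had an unadjusted limma p under 0.05, beside 14.3% of all genes. The roles were assigned with earlier results of these data known, and this count is a description. The count of 4 was 3 when the arrays were centred on their medians or quantile normalised again, because the groups then overlapped for Ccl20.

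To show the regulatory sequence beside these 4 genes, the 250 bases before each start are given 5′ to 3′ on the gene's strand, from RefSeq on the rat build GRCr8. Capitals mark matches, on either strand, to GGG followed by 5 bases of any kind and then CC, a loose form of the site bound by NF-kB, the transcription factor that inflammatory signals activate. Matches may overlap and then run together.
Cxcl16: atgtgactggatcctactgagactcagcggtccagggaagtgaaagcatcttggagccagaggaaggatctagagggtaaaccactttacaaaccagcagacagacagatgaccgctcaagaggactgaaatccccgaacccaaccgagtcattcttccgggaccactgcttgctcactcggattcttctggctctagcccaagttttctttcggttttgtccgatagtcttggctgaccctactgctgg
Ccl20: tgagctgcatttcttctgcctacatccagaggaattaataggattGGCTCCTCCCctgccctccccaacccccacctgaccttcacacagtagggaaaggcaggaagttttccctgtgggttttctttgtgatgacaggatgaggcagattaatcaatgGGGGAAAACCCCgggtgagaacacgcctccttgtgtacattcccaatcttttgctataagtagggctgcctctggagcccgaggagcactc
Ccl25: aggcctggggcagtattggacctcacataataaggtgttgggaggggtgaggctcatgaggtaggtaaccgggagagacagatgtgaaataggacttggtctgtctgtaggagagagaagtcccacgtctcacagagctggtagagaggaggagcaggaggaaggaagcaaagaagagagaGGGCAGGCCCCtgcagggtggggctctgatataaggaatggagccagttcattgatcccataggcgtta
Cx3cl1: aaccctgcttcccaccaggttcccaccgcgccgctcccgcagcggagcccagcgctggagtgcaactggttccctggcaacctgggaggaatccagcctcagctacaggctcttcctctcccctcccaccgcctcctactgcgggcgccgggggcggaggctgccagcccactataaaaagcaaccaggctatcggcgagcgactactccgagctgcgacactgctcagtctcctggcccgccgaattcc
The windows are chr10:55669951-55670200 on the minus strand for Cxcl16, chr9:91836909-91837158 on the plus strand for Ccl20, chr12:7504985-7505234 on the plus strand for Ccl25 and chr19:10242821-10243070 on the minus strand for Cx3cl1. The Ccl20 window held 4 matches, and 3 of them overlapped in a single stretch that begins 91 bases before the start. Ccl25 held 2 overlapping matches that begin 69 bases before the start, and the windows of Cxcl16 and Cx3cl1 held none of these letters. Such a match was found in 43.5% of the 27457 promoter windows of the rat table and in 21 of the 38 members listed there (55.3%), so it is common. No binding was measured.

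Cxcl16 encodes a transmembrane chemokine that also takes up oxidised lipoprotein and whose receptor is Cxcr6. Its levels were 8.72, 8.85 and 8.67 in sham 1 to 3 and 9.54, 9.28 and 9.31 in DJB 1 to 3. Every DJB rat lay above every sham rat, with a gap between the groups wider than the spread within either. The change was 0.63 ± 0.11 (95% interval 0.38 to 0.87, limma adjusted p = 0.0393). The direction was kept whichever array was left out (0.55 to 0.68), but Cxcl16 no longer passed whichever of the 6 arrays was dropped (adjusted p 0.0753 to 0.161), nor with rows of no or several symbols also tested (adjusted p = 0.0826).

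Ccl20, the ligand of Ccr6 that the epithelium over lymphoid follicles makes and bacterial products induce, had the largest difference of the 49 members. Sham levels were 6.75, 7.26 and 7.06, and DJB levels were 7.35, 8.25 and 8.45. DJB 2 and DJB 3 stood well above sham, while DJB 1 lay just above the highest sham rat. The difference of 0.99 ± 0.26, 1.99-fold, did not pass (limma adjusted p = 0.148). It passed without DJB 1, at 1.33 (adjusted p = 0.0116), and was 0.78 without DJB 3.

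Ccl25, the gut-homing ligand of Ccr9, read 11.19, 11.13 and 11.09 in sham and 11.38, 11.57 and 11.36 after DJB. The groups did not overlap, and the difference was small, at 0.30 ± 0.10 (1.23-fold, limma adjusted p = 0.229). Cx3cl1, or fractalkine, which holds and guides macrophages through Cx3cr1, read 7.75, 7.76 and 7.99 in sham and 8.30, 8.04 and 8.17 after DJB. The lowest DJB rat lay just above the highest sham rat, and the difference was 0.34 ± 0.11 (limma adjusted p = 0.230).

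Ccl28, a mucosal ligand of Ccr10 and Ccr3, read 7.45, 7.42 and 7.79 in sham and 8.09, 8.16 and 7.73 after DJB. DJB 3 fell within the sham range, so the groups overlapped, and the difference was 0.44 ± 0.15 (limma adjusted p = 0.226). Cxcl14, a ligand that resting epithelium makes, was lower after DJB. It read 8.52, 8.89 and 8.83 in sham and 8.59, 8.50 and 8.06 after DJB, with sham 1 among the DJB values. Its difference was -0.36 ± 0.16 (limma adjusted p = 0.347). Cxcl17, another mucosal ligand, was dim at 5.77 to 6.0 over all arrays and differed by -0.04 ± 0.10.

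**Figure D1:**
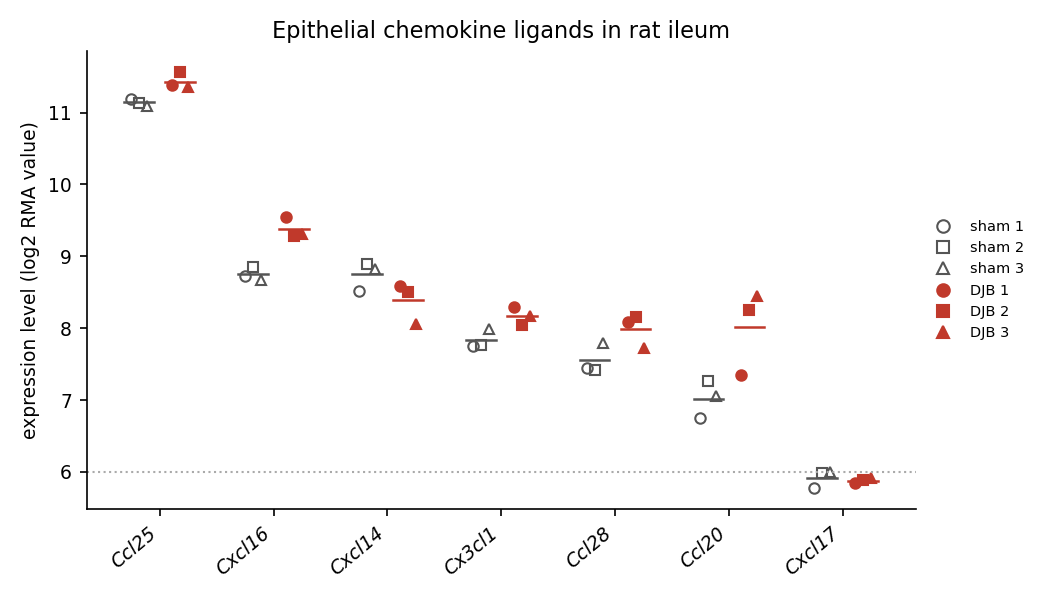
Expression level (log2 RMA value) of the 7 epithelial ligands by rat: open grey symbols are sham, filled red symbols DJB, the symbol shape gives the replicate number, short lines the group means, and the dotted line the level of 6. All DJB symbols of Cxcl16 lie at 9.28 or above and all sham symbols at 8.85 or below, while Ccl20 spreads from 7.35 to 8.45 after DJB.

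Markers of the epithelium were measured beside these ligands. Of 11 epithelial markers 5 lay wholly above sham after DJB (45.5%, beside 14.5% of all genes, or 17.7% of those with a mean of at least 6). The DJB values lay wholly below sham for 1 (9.09%, beside 6.56% of all genes). None passed, and 7 were higher (63.6%, beside 61.7% of all genes) with a median change of 0.10. The summed linear level of the 11 markers, led by Fabp2 and Krt8, was 51990 to 56430 in sham and 54780 to 56270 after DJB. Epcam, an adhesion protein of all gut epithelium, went from 12.14 to 12.35 and the enterocyte fatty acid binding protein gene Fabp2 from 13.39 to 13.25. The 6 genes of the ileal bile acid list, which enterocytes also express, were all higher after DJB (median 0.67). Of them 5 lay wholly above sham (83.3%, beside 14.5% of all genes). Of these, Slc10a2 (1.73 ± 0.22, limma adjusted p = 0.0106) and Nr1h4, the bile acid receptor gene (0.98 ± 0.15, limma adjusted p = 0.0275), rose. The part of either marker list in the ligand values was not tested.

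Neutrophil-attracting ligands, all 4 of them dim, showed little difference after surgery. Cxcl1, Cxcl2 and Cxcl3, which act on Cxcr2, differed by -0.01, 0.12 and -0.04, and Cxcl6 by 0.20 ± 0.12 (limma adjusted p = 0.500). Their groups overlapped in each case. The 95% interval of the Cxcl1 difference ran from -0.26 to 0.23.

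The interferon-inducible ligands Cxcl9, Cxcl10 and Cxcl11, which attract effector T cells through Cxcr3 and are neighbours in the genome, were higher by 0.41 ± 0.29, 0.20 ± 0.13 and 0.09 ± 0.17, and none passed. Cxcl9 read 5.54, 5.77 and 5.61 in sham and 5.68, 5.59 and 6.88 after DJB. One rat, DJB 3, carried that difference, which was -0.01 without it. Cxcl10 read 6.30, 6.36 and 6.41 in sham and 6.33, 6.53 and 6.81 after DJB, again with DJB 3 highest.

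All 4 lymphoid homeostatic ligands were lower after DJB, by a median of -0.32, and their groups overlapped. Cxcl13, which gathers B cells into follicles, read 8.85, 9.12 and 7.86 in sham and 8.28, 7.39 and 7.78 after DJB. Sham 3 lay among the DJB values, and the difference of -0.80 ± 0.32 did not pass (limma adjusted p = 0.305). It was -0.54 without sham 2 and -1.17 without sham 3. Ccl21, which guides T cells and dendritic cells with Ccr7, read 7.70, 7.91 and 7.27 in sham and 7.77, 6.69 and 7.25 after DJB, a difference of -0.39 ± 0.26. Ccl19, the other ligand of Ccr7, was dim and differed by -0.25 ± 0.16. Cxcl12, the broadly made stromal ligand of Cxcr4, differed by -0.12 ± 0.13 and turned to 0.03 without DJB 3. Fibroblast markers, led by Dcn and Col1a1, were higher in 5 of 8 (62.5%, beside 61.7% of all genes), with a median of 0.48. None passed, and 5 had an unadjusted limma p under 0.05 (62.5%, beside 14.3% of all genes). The 8 markers had a summed linear level of 3806 to 4985 in sham and 4371 to 6378 after DJB, and their part in the Cxcl12 value was not tested. In the mouse Ccl21 and Ccl27 have near-identical copies, and whether the array rows separate such copies in the rat was not tested.

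Markers of follicular B cells varied over the same rats. Cr2, the complement receptor of B cells and follicular dendritic cells, read 6.86, 7.35 and 5.60 in sham and 6.92, 4.05 and 5.60 after DJB. Ms4a1, which encodes the B cell antigen CD20, read 6.42, 6.78 and 5.43 in sham and 6.56, 4.33 and 5.55 after DJB. In both, as in Cxcl13, Ccl21 and the follicular B cell receptor gene Cxcr5, sham 3 was the lowest sham rat and DJB 2 the lowest of all 6. The 7 measured B cell markers, led by Cd79b and Blk, summed to a linear level of 380.6 to 670.4 in sham and 288.0 to 619.7 after DJB, 6 of the 7 were lower, and none passed in limma (0 at an unadjusted p under 0.05). Their part in the ligand values was not tested.

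**Figure D2:**
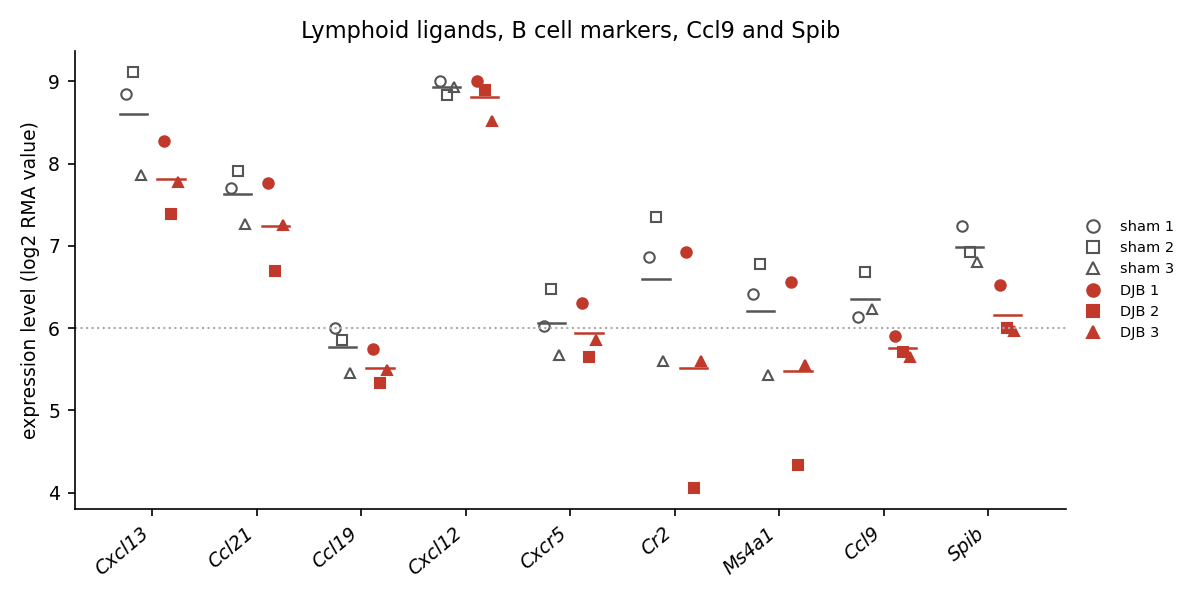
Expression level (log2 RMA value) by rat of lymphoid ligands, the receptor Cxcr5, the B cell markers Cr2 and Ms4a1, and Ccl9 with Spib; symbols as in the plot of epithelial ligands. DJB 2 (filled square) is lowest for Cr2 at 4.05 and for Cxcl13 at 7.39, while for Ccl9 and Spib all 3 DJB rats lie under all 3 sham rats.

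Ligands that draw monocytes and T cells were higher in 7 of 9 members (77.8%, beside 61.7% of all genes), with a median change of 0.17. None passed in limma and 2 had an unadjusted limma p under 0.05 (22.2%, beside 14.3% of all genes). Ccl9, which in the mouse is made by the epithelium over Peyer's patches and draws dendritic cells, had the largest difference among them, and it was downward. It read 6.14, 6.68 and 6.23 in sham and 5.90, 5.71 and 5.65 after DJB. The groups did not overlap, and the difference was -0.59 ± 0.15 (limma adjusted p = 0.133).

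Spib, the transcription factor gene of M cells and B cells, read 7.24, 6.93 and 6.81 in sham and 6.52, 6.0 and 5.96 after DJB, with no overlap (-0.83 ± 0.17, limma adjusted p = 0.0750). Of the 5 measured markers of follicle-associated epithelium, 3 were lower. The DJB values lay wholly below sham for 2 of the 5, Spib and Marcksl1 (-0.17 ± 0.09), beside 6.56% of all genes. Gp2, the M cell receptor gene, was dim and differed by 0.11 ± 0.16, and the summed level of the list, led by Anxa5 and Marcksl1, was 1052 to 1111 in sham and 868.9 to 1104 after DJB. Their part in the Ccl9 value was not tested.

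Ccl6, a macrophage chemokine whose gene neighbours Ccl9, differed the other way. It read 8.82, 8.07 and 8.34 in sham and 8.68, 8.99 and 8.93 after DJB, with sham 1 among the DJB values (0.45 ± 0.18, limma adjusted p = 0.303). Ccl2, the main ligand of the monocyte receptor Ccr2, differed by 0.24 ± 0.15 and Ccl5, made by cytotoxic T cells, by 0.18 ± 0.22. Ccl5 read 9.50, 9.95 and 9.60 in sham and 9.74, 9.47 and 10.37 after DJB, and its difference was -0.08 without DJB 3. Ccl3, Ccl4, Ccl7 and Ccl12 were dim, with differences of 0.15 to 0.26, and Xcl1, the lymphocyte-made ligand of Xcr1, differed by -0.15 ± 0.12.

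The 6 ligands assigned to eosinophils and type 2 immunity split evenly, with 3 higher and 3 lower. None passed in limma and 1 had an unadjusted limma p under 0.05 (16.7%, beside 14.3% of all genes). Ccl11, or eotaxin, which holds eosinophils in the gut through Ccr3, read 8.63, 8.20 and 8.30 in sham and 8.10, 8.17 and 7.91 after DJB. The highest DJB rat lay just under the lowest sham rat, and the difference was -0.32 ± 0.13 (limma adjusted p = 0.321). Ccl27 also did not overlap, with 6.28 to 6.42 in sham and 6.11 to 6.23 after DJB (-0.21 ± 0.09). Although known best from the skin, Ccl27 was counted in this role and was 1 of its 3 lower ligands. It was in neither the epithelial ligands nor the ligand and receptor pairs. Ccl24, also an eotaxin, differed by -0.15 ± 0.14, and the Ccr4 ligand Ccl17 by 0.18 ± 0.12. Ccl22 and Ccl26 were dim and differed by 0.02 and 0.12.

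Eosinophil markers were low: the granule protein genes Prg2 and Epx read 4.76 to 5.39 over all arrays. The 5 markers, led by Siglec5 and Epx, summed to 214.2 to 236.0 in sham and 179.4 to 214.8 after DJB, where Siglec5, the brightest, was wholly below sham (-0.52 ± 0.16, limma adjusted p = 0.191). Of the other 4, Prg2, Prg3 and Epx were higher by 0.26, 0.10 and 0.07 and Il5ra differed by -0.02, with overlapping groups. Their part in the Ccl11 value was not tested.

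**Figure D3:**
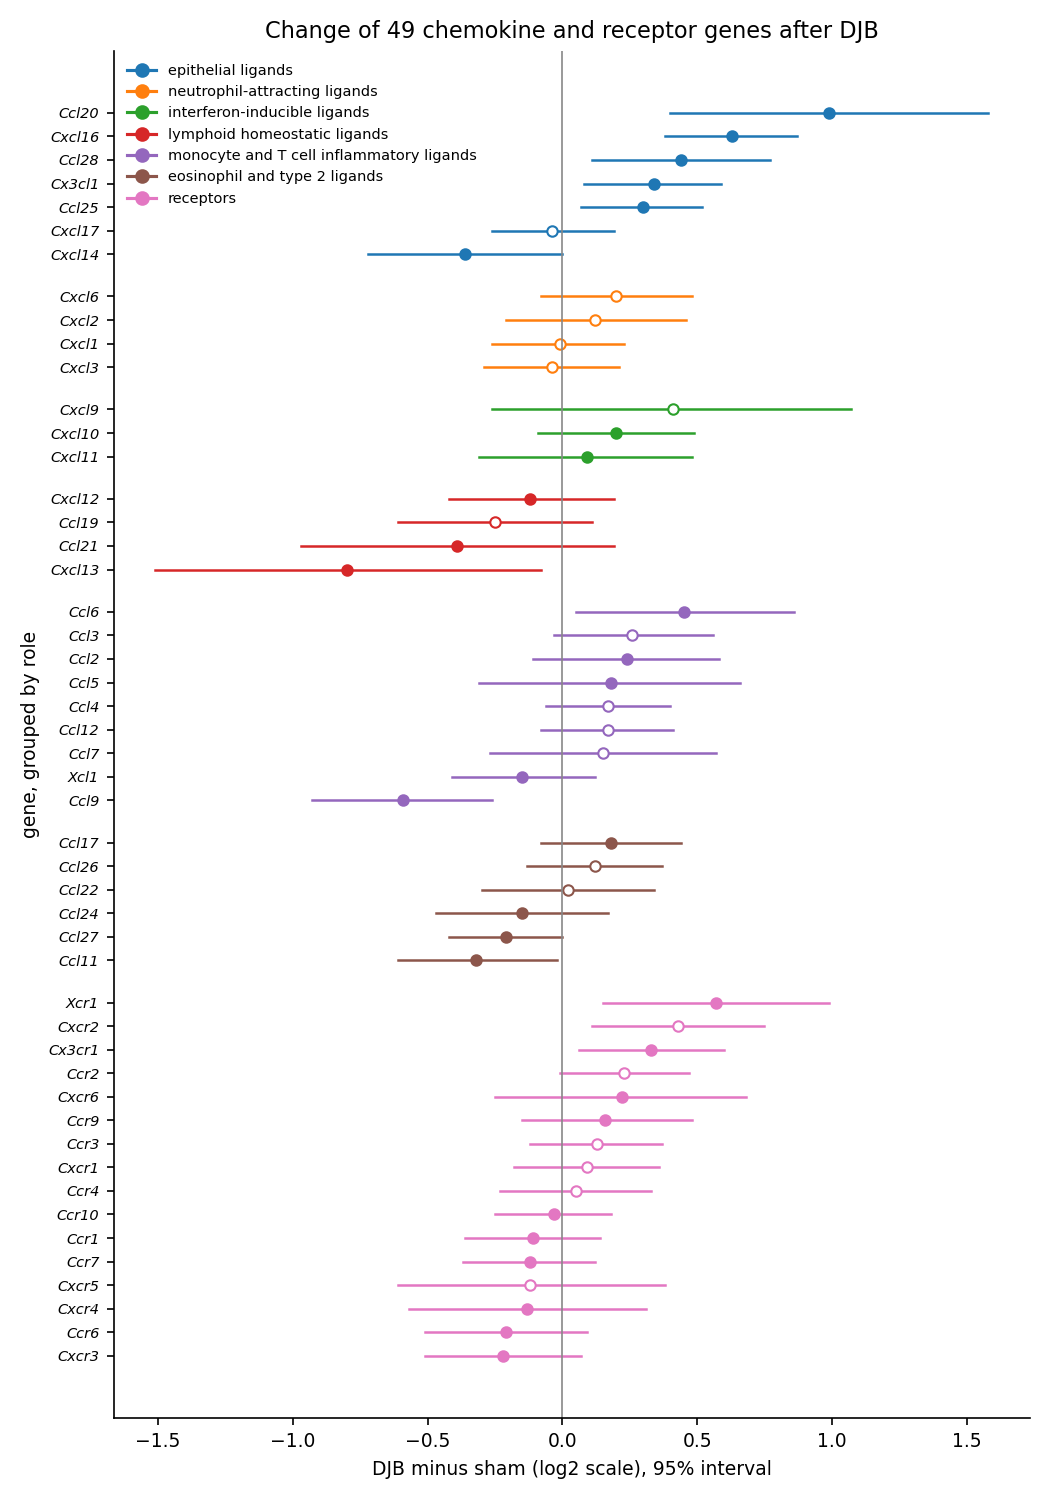
Change after DJB (DJB minus sham, log2 scale) of all 49 members with its 95% interval from the limma fit, grouped and coloured by role; the grey line marks no change and open circles are dim genes. Ccl20 at 0.99 and Cxcl16 at 0.63 lie farthest to the right, and Cxcl13 at -0.80 and Ccl9 at -0.59 farthest to the left.

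Of the 16 receptors, 9 were higher (56.2%, beside 61.7% of all genes) and 7 lower after DJB, with a median change of 0.07. None passed in limma and 3 had an unadjusted p under 0.05 (18.8%, beside 14.3% of all genes). The groups did not overlap for Xcr1, Cx3cr1 and Cxcr2, all above sham (18.8% of receptors, beside 14.5% of all genes). With the 6 dim receptors left out, 4 of 10 were higher and the median was -0.07.

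Xcr1, the receptor of dendritic cells that cross-present antigen, read 6.61, 6.55 and 6.76 in sham and 7.09, 6.87 and 7.68 after DJB. All DJB rats lay above sham and DJB 3 was farthest out. The difference was 0.57 ± 0.19 (1.49-fold, limma adjusted p = 0.220), and it was 0.34 without DJB 3. Clec9a, which marks the same dendritic cells, read 5.88, 6.17 and 6.04 in sham and 6.62, 6.39 and 7.05 after DJB (0.66 ± 0.16, limma adjusted p = 0.131), with DJB 3 again highest. Of the 6 dendritic cell markers 4 were higher, Clec9a by the most, and Zbtb46 (-0.04) and Cd83 (-0.05) were lower. The list, led by Irf8 and Cd83, summed to 1092 to 1278 in sham and 1234 to 1707 after DJB. Their part in the Xcr1 value was not tested.

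Cx3cr1, carried by intestinal macrophages, read 6.48, 6.60 and 6.33 in sham and 6.94, 6.61 and 6.85 after DJB. DJB 2 lay just above sham 2, and the difference was 0.33 ± 0.12 (limma adjusted p = 0.261). Among 10 macrophage markers 7 were higher after DJB, and none passed. The DJB values lay wholly above sham for 4 of the 10, beside 14.5% of all genes, or 17.7% of those with a mean of at least 6. These were Cd14 (0.54 ± 0.12), Cd163 (0.45 ± 0.14), Csf1r (0.35 ± 0.11) and Cd68 (0.27 ± 0.10). The summed level of the 10 markers, which Lyz2 and C1qc lead, was 8010 to 9244 in sham and 7342 to 8605 after DJB. The part of macrophage number was not tested. Ccr2, the monocyte receptor, was dim and read 5.50, 5.64 and 5.50 in sham and 5.91, 5.64 and 5.78 after DJB (0.23 ± 0.10).

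Cxcr2, the main receptor of neutrophils, read 3.88, 3.78 and 3.88 in sham and 4.60, 4.06 and 4.17 after DJB, a difference of 0.43 ± 0.14 (limma adjusted p = 0.221) in a very dim row. The difference was 0.27 without DJB 1. The neutrophil markers S100a8 (2.32 to 2.77) and Csf3r (4.92 to 5.72) were dim on every array. The 9 neutrophil markers, led by Fcnb and Csf3r, were higher in 6. Of the 9, 2 lay wholly above sham, S100a8 and Camp, both dim (22.2%, beside 14.5% of all genes). The 9 markers summed to 253.2 to 313.3 in sham and 272.6 to 315.1 after DJB, and their part in the Cxcr2 value was not tested.

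Receptors of lymphocytes showed overlapping groups, as did the remaining receptors Ccr1, Ccr3 and Cxcr1. Ccr9, which binds Ccl25, read 6.49, 6.51 and 6.45 in sham and 6.64, 6.36 and 6.94 after DJB, and Ccr6, which binds Ccl20, read 6.58, 6.99 and 6.59 in sham and 6.50, 6.38 and 6.63 after DJB. Their differences were 0.16 ± 0.14 and -0.21 ± 0.13. Ccr10 differed by -0.03 ± 0.09, with a 95% interval from -0.25 to 0.18, the narrowest of the receptors. The 7 plasma cell markers, led by Jchain and Sdc1, summed to 3604 to 4314 in sham and 3592 to 3929 after DJB. Ccr7 (-0.12 ± 0.11), Cxcr3 (-0.22 ± 0.13), Ccr1 (-0.11 ± 0.11) and Cxcr4 (-0.13 ± 0.19) did not pass either, and Cxcr4 turned to 0.07 without DJB 2. Cxcr5, Ccr3, Ccr4 and Cxcr1 were dim, with differences between -0.12 and 0.13.

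Cxcr6, the receptor of Cxcl16 on tissue-resident T and NK cells, read 8.21, 8.41 and 8.23 in sham and 8.37, 8.10 and 9.03 after DJB. DJB 3 stood apart while DJB 2 was the lowest of all 6, and the difference of 0.22 ± 0.21 (limma adjusted p = 0.685) was -0.05 without DJB 3. Gzmb, which encodes granzyme B of cytotoxic cells, read 7.89, 8.45 and 7.54 in sham and 8.67, 8.51 and 10.33 after DJB. Nkg7 and Klrk1, 2 further genes of cytotoxic cells, were also highest in DJB 3, at 7.91 and 7.95, as were Gzma, Prf1 and Klrb1, while Ncr1, Klrd1 and Tbx21, all dim, were highest in a sham rat. The 9 cytotoxic markers, led by Gzmb and Gzma, summed to 797.9 to 1175 in sham, 1149 and 962.2 in DJB 1 and DJB 2 and 2638 in DJB 3, and the part of those cells in the values of Cxcr6, Ccl5 and Cxcl9 was not tested. All 12 T cell markers were higher after DJB, beside 61.7% of all genes, by a median of 0.21, with groups that overlapped in each. Led by Cd3g and Cd4, the 12 markers summed to 2845 to 3783 in sham and 2846 to 4121 after DJB.

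**Figure D4:**
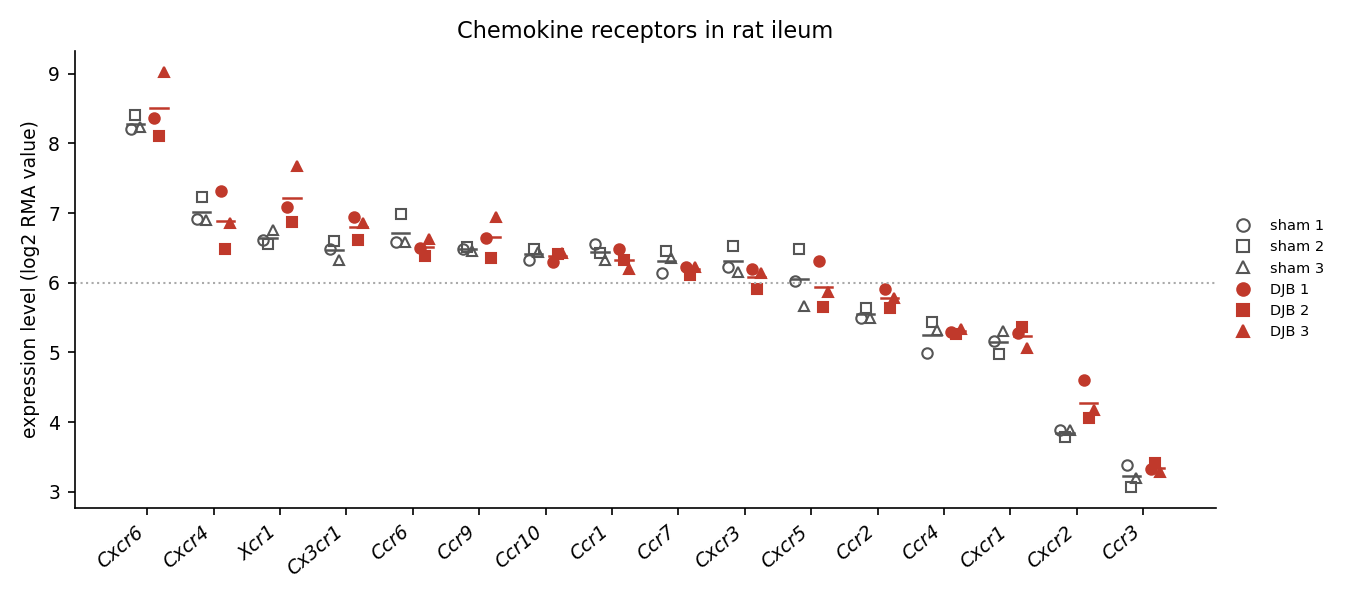
Expression level (log2 RMA value) of the 16 receptors by rat, symbols as in the plot of epithelial ligands; levels of different genes are not comparable on an array. Xcr1 and Cx3cr1 are the receptors above the level of 6 whose DJB symbols all lie above sham, and DJB 3 (filled triangle) of Cxcr6 stands apart at 9.03.

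**Figure D5:**
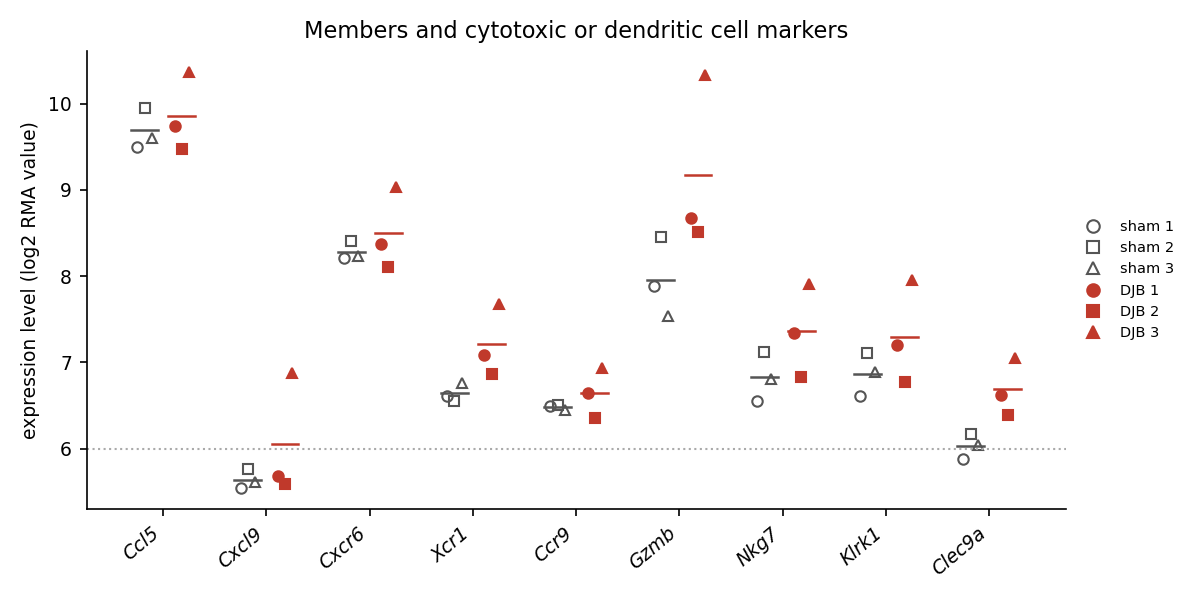
Expression level (log2 RMA value) by rat of Ccl5, Cxcl9, Cxcr6, Xcr1 and Ccr9 beside the cytotoxic cell markers Gzmb, Nkg7 and Klrk1 and the dendritic cell marker Clec9a; symbols as in the plot of epithelial ligands. DJB 3 (filled triangle) is the highest of the 6 rats for every gene shown, from 6.88 for Cxcl9 to 10.37 for Ccl5.

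Ligands were set beside the receptors they bind in 19 pairs. Both genes lay wholly above sham after DJB in 1 pair, Cx3cl1 with Cx3cr1, and they differed by similar amounts, 0.34 and 0.33. For the other paired epithelial ligands the receptor differed by less. Cxcl16 differed by 0.63 and Cxcr6 by 0.22, and Ccl20 by 0.99 and Ccr6 by -0.21. Ccl25 differed by 0.30 and Ccr9 by 0.16, and Ccl28 by 0.44 and Ccr10 by -0.03. Whether ligand and receptor differed from each other was not tested.

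By RefSeq gene order, 32 of the 49 members lie in 9 clusters with at most 2 other protein-coding genes between neighbours. Directions were mixed within several clusters. Ccl9 and Ccl6 at -0.59 and 0.45 share a cluster with Ccl3, Ccl4 and Ccl5 (0.17 to 0.26), and Ccl11 at -0.32 lies among Ccl2, Ccl7 and Ccl12 (0.15 to 0.24). Cx3cl1 lies between Ccl17 and Ccl22. In the cluster of Ccl27, Ccl19 and Ccl21 all 3 were lower, and in that of Ccr9, Cxcr6, Xcr1, Ccr1, Ccr3 and Ccr2 5 of 6 were higher.

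Other genes of the pathway came from 7 lists with 82 measured genes. None passed in limma in either direction, and 17 of the 82 had an unadjusted limma p under 0.05, beside 14.3% of all genes. The list of cytokines, receptors and NF-kB genes that induce chemokines had 20 of 24 genes higher (83.3%, beside 61.7% of all genes). Its median change was 0.22 beside 0.05 over all genes, and 9 of the 24 lay wholly above sham (37.5%, beside 14.5% of all genes).

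Nfkbia, the inhibitor that NF-kB itself induces, read 9.70, 9.76 and 9.77 in sham and 10.03, 10.04 and 10.18 after DJB (0.34 ± 0.09, limma adjusted p = 0.159). Stat3, the transcription factor of IL-6 and IL-22 signals, read 9.26 to 9.34 in sham and 9.51 to 9.64 after DJB (0.28 ± 0.09). Neither gene's groups overlapped. Ifng differed by 0.39 ± 0.10 in a dim row of 3.87 to 4.50. Among the other cytokines of the list, Tnf and Il1b differed by 0.08 and -0.02, and Il17a, also dim, by 0.34 ± 0.12, wholly above sham.

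The remaining lists had smaller median changes, and their counts of higher genes stand beside 61.7% of all genes. In signalling to migration 11 of 16 were higher (median 0.06), and 3 lay wholly above sham (18.8%, beside 14.5% of all genes). These were Cdc42 and Rac1, the GTPases of cell movement, by 0.24 ± 0.09 and 0.22 ± 0.10, and Gnai2 by 0.10 ± 0.10. Gnai3 was at 0.21 ± 0.11. In desensitisation 6 of 11 were higher (median 0.05), and 2 lay wholly below sham (18.2%, beside 6.56% of all genes). These were the receptor kinase genes Grk3 (-0.27 ± 0.11) and Grk2 (-0.19 ± 0.09). The signalling brake Rgs1 was at 0.50 ± 0.18. In cleavage and shedding 8 of 10 were higher (median 0.11), and 1, Adam17, lay wholly above sham (10.0%, beside 14.5% of all genes). Adam17, the sheddase of Cx3cl1, was at 0.18 ± 0.09, and the protease genes Ctss and Mmp7 were at 0.27 ± 0.12 and 0.24 ± 0.15.

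Homing molecules were higher in 8 of 12 (66.7%, beside 61.7% of all genes, median 0.06). Of the 12, 2 lay wholly below sham (16.7%, beside 6.56% of all genes) and 1 wholly above (8.33%, beside 14.5%). Madcam1, the vessel addressin that gut-homing lymphocytes bind, read 6.92, 6.89 and 6.99 in sham and 6.71, 6.55 and 6.68 after DJB (-0.28 ± 0.09, limma adjusted p = 0.230), wholly below sham. Its ligand subunit gene Itgb7 was at 0.34 ± 0.15 and the adhesion molecule gene Vcam1 at 0.24 ± 0.12. A list of chemokines with other names and of related or chemokine-like genes, not all of them chemokine ligands, was higher in 5 of 6 (median 0.15). It held Pf4, Ppbp, Cklf, Mif, Cmtm3 and Cmtm6. Ppbp at 0.24 ± 0.10 and Cklf at 0.29 ± 0.14 were dim, and Cmtm6 was at 0.23 ± 0.11. The 3 measured atypical receptors, which bind chemokines without G protein signalling or, for Ccrl2, present them, differed by 0.20 (Ccrl2), 0.02 (Ackr3) and 0.01 (Ackr2).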

How the data were processed

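The authors deposited 1 table of log2 expression values, 29214 rows by 6 arrays, made with RMA per the submitters' processing notes; version, genome build and annotation are not given in the sources used here. Columns were matched to samples by name, and the values were used as deposited. Rows were named through the platform annotation: 15310 had 1 symbol, 323 several and 13581 none, and rows with 1 were kept. The row of highest mean stood for a gene. All 49 member symbols were found in RefSeq. DJB and sham were compared over all 14506 genes with limma 3.58.1 in R 4.3.3 (lmFit, eBayes, no covariate, no filter, two-sided, Benjamini-Hochberg, threshold 0.05); with 3 rats in each group the smallest exact two-sided p is 0.1, so exact tests are not quoted. The submitters label the rats as biological replicates. The script was tested on simulated data. Lists are described by counts and medians. Summed marker levels add 2 to the power of each log2 value.

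Members, roles and lists were chosen with earlier results of these data known. Named in full were epithelial ligands and receptors of mean 6 or more and members that passed or whose groups did not overlap. So were the 3 of lowest p in each other role and pathway list, and the 5 members of highest mean. Other genes were chosen after their values were seen. These were Il1b, Tnf, Il17a, Gnai2, Epcam, Fabp2, Clec9a, Nr1h4, Gp2, Marcksl1, Spib, Cr2 and Ms4a1. The macrophage, dendritic cell, cytotoxic, eosinophil and neutrophil genes named beside members were also chosen in this way. Promoters are from RefSeq (GRCr8), 1 window per gene. Figures used matplotlib 3.10.9 in Python 3.11.15. The fit was repeated with a replicate block, 2 rescalings (quantile, median centring), dim genes left out, an intensity trend, robust eBayes, the mean of a gene's rows, all rows tested, and each array left out.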

Additional observations from a re-analysis of the deposited data

How the results depend on the processing

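The number of genes called, 112, was 50 with the replicate block, 219 with dim genes left out, 295 with an intensity trend and 33 to 108 without 1 array. The number of members called, 1, was 0 with the replicate block (Cxcl16 adjusted p = 0.138), 0 with all rows tested (Cxcl16 adjusted p = 0.0826), and 0 to 1 without 1 array, the 1 being Ccl20 without DJB 1. Cxcl16 was the member called in the other 6 alternatives, with adjusted p from 0.00856 to 0.0386. Deviations of same-numbered arrays correlated at 0.01, -0.12 and -0.15, and no sham array correlated best with its own number. No shared deviation by replicate number was thus seen. With 3 arrays in each group, these correlations cannot show whether the rats were handled in pairs. The median change of the receptors was -0.07 with dim genes left out and -0.01 to 0.10 without 1 array, and that of the epithelial ligands stayed between 0.30 and 0.42. Of 35 named members, 26 kept their direction in every one of the 14 alternatives that could be fitted to them (dim members drop out when dim genes are left out). The others changed sign only when an array was left out, over ranges of -0.08 to 0.37 for Ccl5, -0.08 to 0.01 for Ccr10, -0.10 to 0.19 for Cxcl11, -0.22 to 0.03 for Cxcl12, -0.03 to 0.21 for Cxcl2, -0.11 to 0.05 for Cxcl3, -0.01 to 0.64 for Cxcl9, -0.35 to 0.07 for Cxcr4 and -0.05 to 0.42 for Cxcr6. The cause was not tested. The pathway lists held 0 calls in every alternative run. With either rescaling 7 members still lay wholly above sham, with Ccr2 in place of Ccl20. Those wholly below went from 3 to 4 when quantile normalised again, with Cxcl14 added. With median centring they were 5, with Cxcl14 and Cxcr3 added. Under dim rows, 19 of the members, a real difference may be understated.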
